A study of Mus musculus with 53 samples.

Results

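Cytochrome P450 genes other than Cyp1a1, Cyp1b1 and the club cell gene Cyp2f2 were measured in the lungs of female C57BL/6 mice exposed to cigarette smoke. A gene was taken as a member when its symbol in the probe annotation was Cyp followed by a number, letters and a number, which left out P450 genes with symbols of another form, such as Ptgis, Tbxas1 and Cyp51. Of 18193 genes with a probe set of their own on the array, 67 were members, and they held 88 probe sets. The array software's present call (detection p below 0.05) had to hold for 50% or more of the mice in some group before a gene was tested, and 38 members and 15030 genes in all met this. The brightest probe set stood for a gene with several. Probe sets assigned to several P450 symbols were left out, 4 in all, among them the probe set shared by Cyp2a5 and Cyp2a4.

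The series holds 53 Affymetrix arrays, 1 per mouse, of RNA from the small lobe of the lung. Mice received mainstream smoke at 4% by the nose only, or air in the same way as a sham ("forced air"), in daily sessions of 2 hours, 5 per week. There were 6 mice untreated at week 0, 6 with forced air and 6 with smoke at 2 weeks, 6 with forced air and 5 with smoke at 12 weeks, and 6 of each at 24 weeks. A further 6 mice had smoke for 12 weeks and then forced air for 12 weeks, and 6 had smoke for 12 weeks and then room air for 12 weeks. All mice were of this strain, and the labels give the time of exposure but not the animals' ages. A room air control without earlier smoke is not among the groups, so both cessation groups were compared with forced air at 24 weeks. The p-values measure the spread between these mice within a group. Each array is a piece of whole lung, so that fewer cells of a type and less RNA per cell cannot be told apart.

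P450 enzymes are haem proteins of the endoplasmic reticulum or the mitochondrion that insert an oxygen atom into a substrate, using electrons from a reductase. The CYP2 and CYP3 families act mainly on drugs, smoke constituents and other foreign compounds, the CYP4 family on fatty acids and eicosanoids, and the CYP7, CYP27, CYP39 and CYP46 families on cholesterol and oxysterols. In the lung, club cells and alveolar type 2 cells are known for P450 activity, and the aryl hydrocarbon receptor (AHR) is the sensor through which smoke hydrocarbons induce Cyp1a1 and Cyp1b1.

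The lung expressed a restricted set of these genes. The CYP4 group held 7 tested genes out of 11, and all 7 were detected on all 53 arrays. The large CYP2C and CYP2D groups were mostly not detected: 4 of 11 CYP2C genes and 2 of 8 CYP2D genes were tested, and 1 gene of each, Cyp2c23 and Cyp2d22, was detected on every array. Among the sterol and bile acid enzymes 5 of 6 were tested, with Cyp7b1, Cyp27a1 and Cyp39a1 on every array. The CYP2A, 2B, 2E, 2F, 2G and 2S group had 6 of 8 genes tested, and Cyp2b10, Cyp2e1, Cyp2g1 and Cyp2s1 were on every array. Of 5 steroid hormone enzymes 3 were tested, and none was detected on every array. In all, 22 of the 38 tested genes were detected on all 53 arrays and 16 were not.

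**Figure D1:**
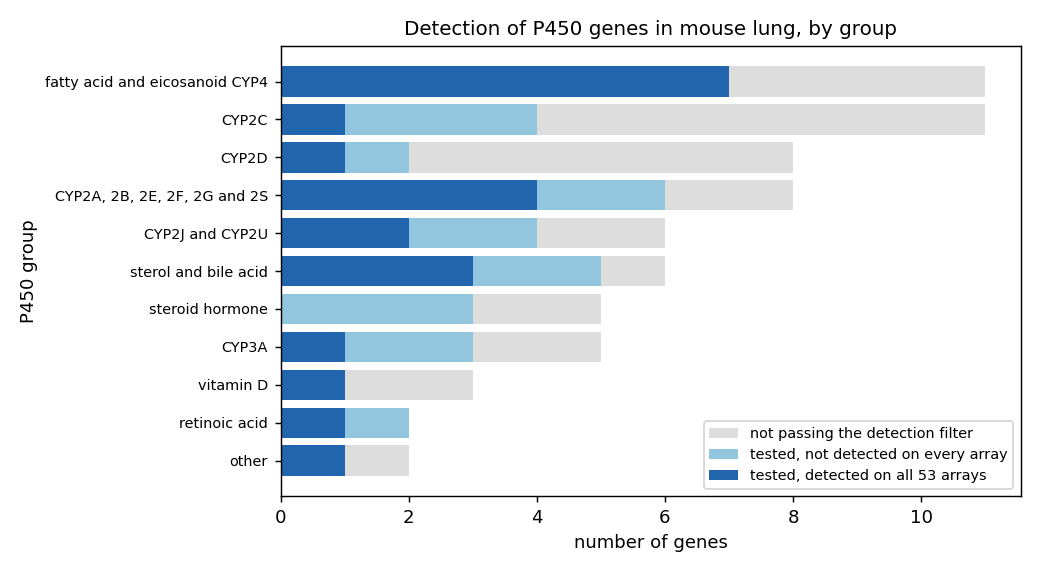
Number of P450 genes (x axis) in each group of genes (y axis), split by detection on the 53 arrays. Dark blue bars are genes detected on every array, light blue bars are tested genes with fewer present calls, and grey bars are genes below the detection filter. The CYP4 bar has 7 of 11 genes in dark blue, against 1 of 11 for CYP2C, 1 of 8 for CYP2D and 4 of 8 for the CYP2A, 2B, 2E, 2F, 2G and 2S group.

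The 29 untested members had a median of 1 present call among 53 arrays and at most 8, and 13 of them had none. Cyp1a2, the liver enzyme that the AHR induces together with Cyp1a1, was present on 1 array, a smoke array of week 2. Cyp24a1, which inactivates vitamin D, was present on 0 arrays, and Cyp4a14, a PPAR-alpha target that hydroxylates fatty acids, on 7. Cyp2j5 was present on 8 arrays, Cyp4x1 on 7, Cyp2c29 on 6 and Cyp27b1, which activates vitamin D, on 4. Cyp2c39 and Cyp2c70 were present on 3 arrays and Cyp2d34 on 2. Cyp2c50, Cyp2d9, Cyp2d10, Cyp3a16, Cyp4a31, Cyp8b1 and Cyp11b2 were present on 1 array each. Besides Cyp24a1, the members present on no array were Cyp2a12, Cyp2b13, Cyp2c38, Cyp2c65, Cyp2c68, Cyp2d12, Cyp2d26, Cyp2d40, Cyp2j13, Cyp3a25, Cyp4f14 and Cyp17a1. No change can be read from these genes. Markers of lung tissue, Sftpc, Scgb1a1, Ager and Pecam1, were detected on all 53 arrays, while hepatocyte markers were dim: the 11 on the array summed to at most 214 on any array. Of these 11, 6 passed the detection filter, Ttr was present on 37 arrays, Alb on 24, and Apoa1 and Fgb on none.

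After 2 weeks of smoke 1 member was higher and 2 were lower than with forced air, of 38 tested (limma, Benjamini-Hochberg adjusted p under 0.05 over all 15030 genes). Over all genes 5.4% were called higher and 3.72% lower. The higher gene was Cyp4v3 and the lower ones were Cyp2c23 and Cyp4b1. The median log2 change of the members was 0.014, against 0.0017 for all genes.

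After 12 weeks 3 members were higher and 8 lower, against 12.5% higher and 10.5% lower over all genes. Cyp7b1, Cyp4v3 and Cyp4f16 were higher. Cyp2b9, Cyp2b10, Cyp2c23, Cyp2d22, Cyp3a13, Cyp4b1, Cyp4f15 and Cyp39a1 were lower. For Cyp2b9, Cyp2b10, Cyp3a13 and Cyp39a1 the forced air mice of week 12 were themselves higher than untreated mice (log2 change 0.33, 0.26, 0.41 and 0.21). Smoke was not compared with untreated mice, so a fall below the untreated level is not shown for these genes. The median change was -0.080 for the members and -0.020 for all genes.

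After 24 weeks 4 members were higher, Cyp7b1, Cyp4v3, Cyp4f16 and Cyp4f39, and 3 were lower, Cyp2d22, Cyp3a13 and Cyp20a1. The background was 11.1% higher and 6.68% lower, and the median change was -0.075 for the members against -0.00064 for all genes. The tested members Cyp2c37, Cyp2c55, Cyp2d13, Cyp2j11, Cyp2r1, Cyp2u1, Cyp11a1, Cyp11b1, Cyp21a1 and Cyp26a1 were called in none of the comparisons made. Cyp4v3 was called at all 3 times, and Cyp7b1, Cyp4f16, Cyp2d22 and Cyp3a13 at both later ones.

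**Figure D2:**
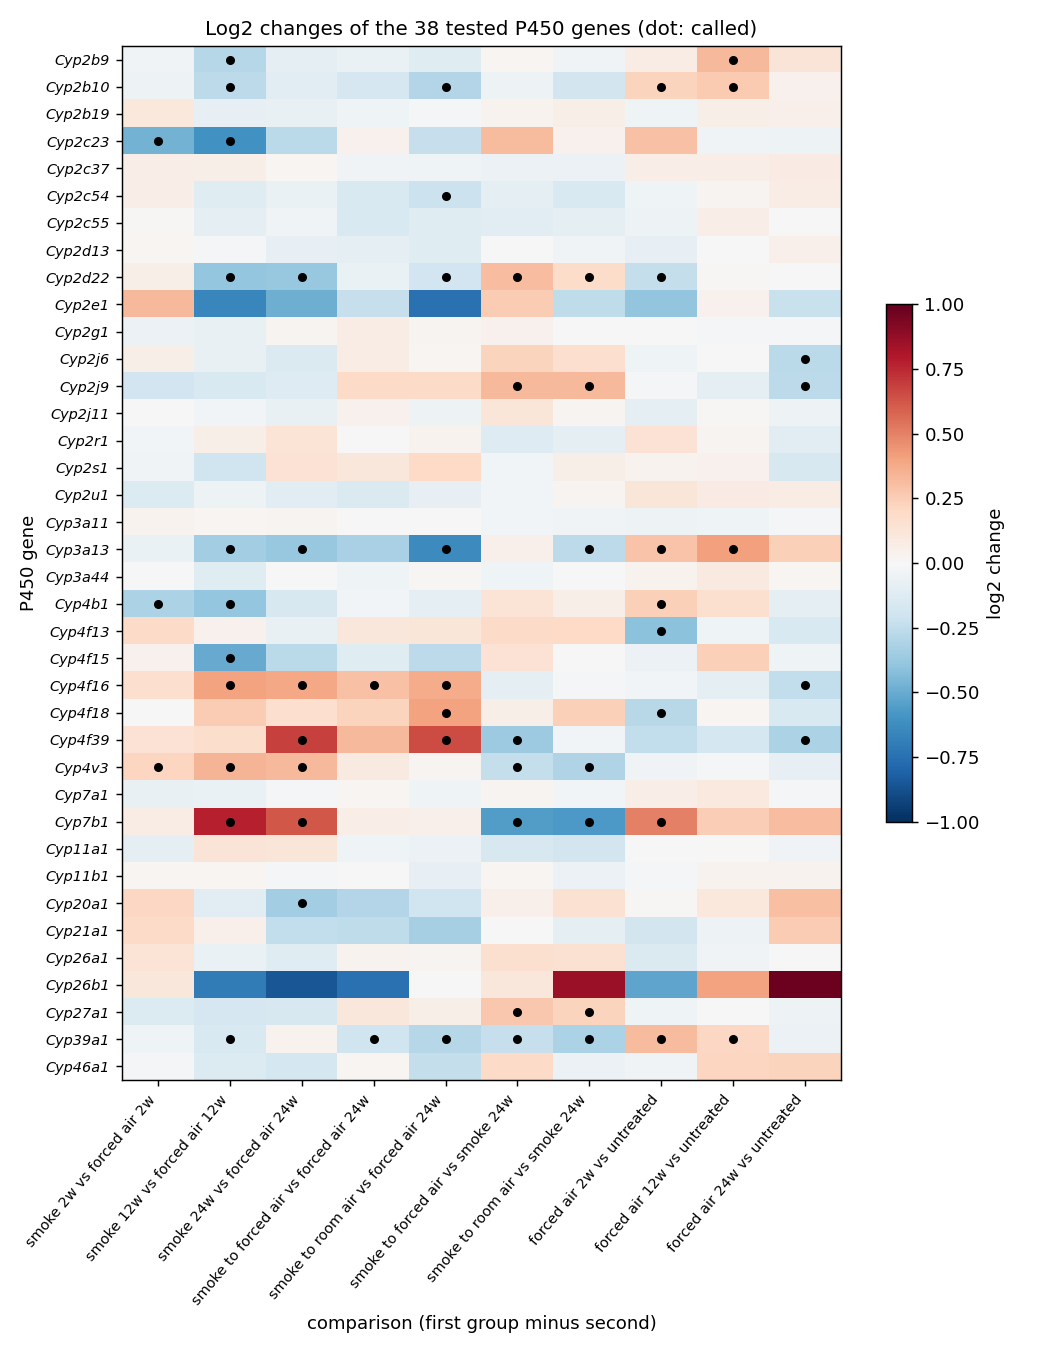
Log2 change (colour, first group minus second) of the 38 tested P450 genes (rows) in 10 comparisons (columns). Dots mark changes called at an adjusted p under 0.05. Most rows are pale, with 11 dots at 12 weeks and 7 dots at 24 weeks of smoke. Cyp26b1 and Cyp2e1 show strong colour without a dot.

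Among the sterol enzymes, Cyp7b1 stood apart. It encodes the oxysterol 7-alpha-hydroxylase, which acts on 25-hydroxycholesterol, an oxysterol made by activated macrophages. Its signal with 12 weeks of smoke was 206, 223, 243, 249 and 255 on the 5 arrays, and with forced air it ran from 119 to 143 with a median of 131.5. Every smoke array was above every forced air array, and the means were 235 ± 20.4 (SD, n = 5) and 130.3 ± 10.1 (SD, n = 6), a fold change of 1.72 on the log2(signal + 16) scale (log2 change 0.78 ± 0.12 SE, adjusted p = 1.28e-06, limma).

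At 24 weeks Cyp7b1 ran from 187 to 269.9 with a median of 213 with smoke and from 109.7 to 165 with a median of 140.3 with forced air, again without overlap (log2 change 0.62 ± 0.11 SE, adjusted p = 4.3e-05, limma). Its second probe set gave 0.99 and 0.61 at 12 and 24 weeks, both called. At 2 weeks the ranges overlapped, from 131.3 to 215 with a median of 169.7 with smoke and from 109 to 205 with a median of 156 with forced air, and the change was not called (log2 change 0.076 ± 0.11 SE, adjusted p = 0.743). Beside this gene, the summed signal of 8 markers of monocytes and interstitial macrophages was 4847 to 5741 with 12 weeks of smoke against 2424 to 2920 with forced air, and 4349 to 4844 against 2050 to 3108 at 24 weeks. At 2 weeks it was 3448 to 4071 against 2300 to 2722. Of these 8 markers 5, 6 and 7 were called higher at 2, 12 and 24 weeks, where 5.4%, 12.5% and 11.1% of all genes were. None was undetected in any group. The summed signal of 10 alveolar macrophage markers was also higher with smoke without overlap. It was 8677 to 9100 against 6854 to 8532 at 2 weeks and 8561 to 9734 against 6566 to 8236 at 12 weeks. At 24 weeks it was 8483 to 11611 against 6398 to 7259. The part of both marker lists in the Cyp7b1 result was not tested.

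The other sterol enzymes moved little with smoke. Cyp27a1, the mitochondrial sterol 27-hydroxylase, ran from 126.7 to 177 with a median of 153 at 24 weeks with smoke and from 148 to 193 with a median of 172 with forced air, ranges that overlapped. Its log2 changes were -0.14, -0.17 and -0.16 at 2, 12 and 24 weeks, none of them called. Cyp39a1, the 24-hydroxycholesterol 7-alpha-hydroxylase, was 316, 333, 340.1, 347 and 354 with 12 weeks of smoke and from 370.2 to 394 with a median of 373 with forced air. The groups did not overlap, but the change was small (log2 change -0.15 ± 0.056 SE, adjusted p = 0.0428, limma). That call was lost in 8 of 11 fits that left out 1 array (largest adjusted p 0.125) and with the 3'/5' ratios of the arrays as covariates (adjusted p = 0.195). The other 2 tested sterol genes, Cyp7a1, the liver's rate-limiting enzyme of bile acid synthesis, and Cyp46a1, the brain cholesterol 24-hydroxylase, were present on 34 and 14 of 53 arrays and were called in no comparison.

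**Figure D3:**
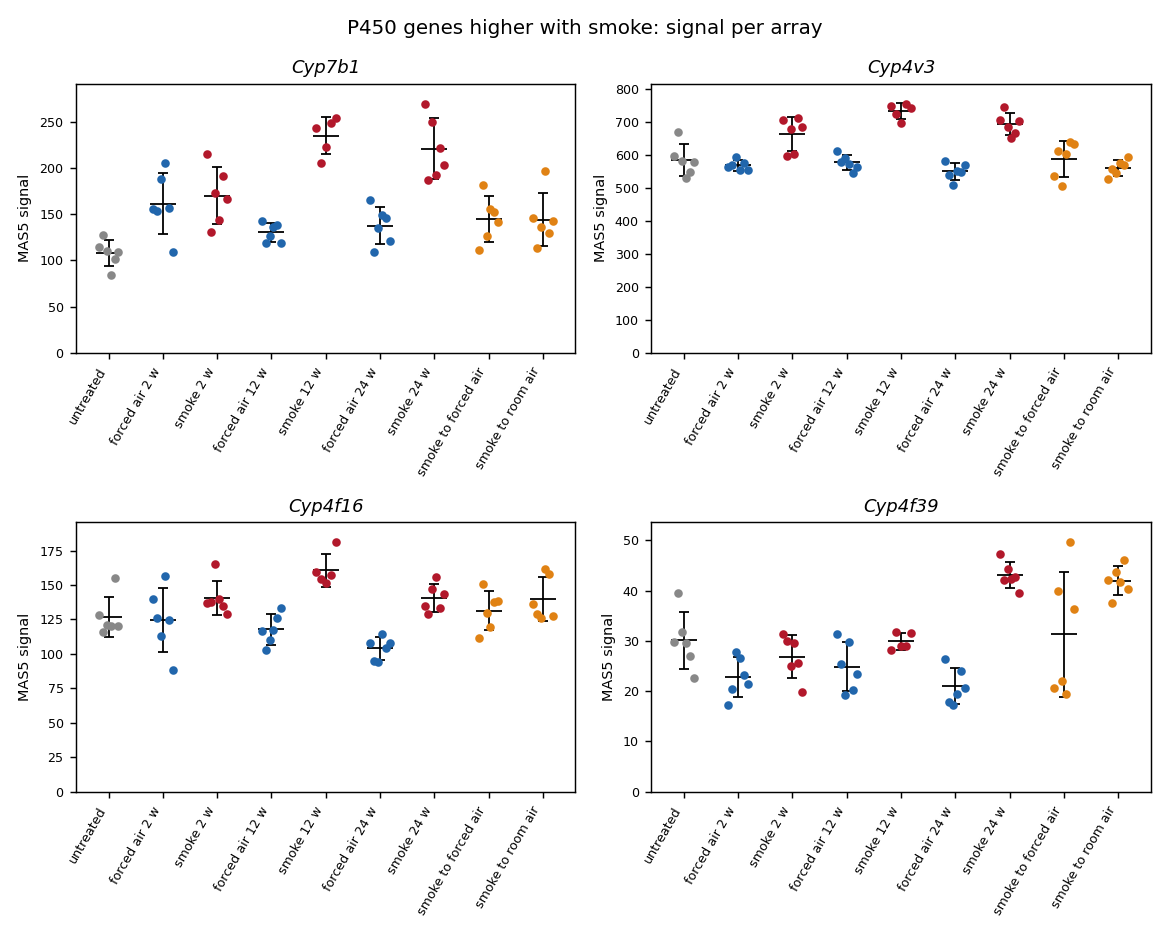
Signal on each array (y axis, linear from 0) of Cyp7b1, Cyp4v3, Cyp4f16 and Cyp4f39 in the 9 groups (x axis, n = 6 except smoke at 12 weeks, n = 5). Points are arrays, and black marks are the mean with the SD as error bars. Cyp7b1 and Cyp4v3 were lower in both cessation groups than with continued smoke, and 4 of 6 Cyp4v3 arrays after forced air were above the forced air range of week 24. The Cyp4f16 means of both cessation groups were above the forced air mean of week 24, and the Cyp4f39 values after forced air split into 3 low and 3 high arrays.

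The CYP4 family held opposite changes within 1 stretch of chromosome 17. Cyp4f39, Cyp4f16, Cyp4f15 and Cyp4f13 lie there in this order in the RefSeq table of GRCm38.p6, with Cyp4f17 between the first pair and Cyp4f37 and Cyp4f40 between the second. Cyp4f enzymes hydroxylate fatty acids and leukotrienes at the end of the chain, and Cyp4f39 is known for the very long chain fatty acids of the skin barrier. The 250 bases before the RefSeq start of the 3 neighbours that changed, and of Cyp4v3 on chromosome 8, are shown because Cyp4f16, Cyp4f39 and Cyp4v3 were the CYP4 genes higher at 24 weeks and Cyp4f15 was lower at 12 weeks. Capitals mark matches, on either strand, to the AHR core GCGTG and the E-box CACGTG, and no matches overlap. The windows are chr17:32452473-32452722, chr17:32536307-32536556 and chr17:32685409-32685658 on the plus strand and chr8:45333164-45333413 on the minus strand, each written 5′ to 3′ along the gene.
Cyp4f39: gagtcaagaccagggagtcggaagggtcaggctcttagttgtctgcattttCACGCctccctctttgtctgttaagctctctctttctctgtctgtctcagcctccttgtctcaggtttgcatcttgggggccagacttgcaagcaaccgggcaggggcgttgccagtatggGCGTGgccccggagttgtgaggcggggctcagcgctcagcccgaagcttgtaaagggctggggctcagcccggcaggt
Cyp4f16: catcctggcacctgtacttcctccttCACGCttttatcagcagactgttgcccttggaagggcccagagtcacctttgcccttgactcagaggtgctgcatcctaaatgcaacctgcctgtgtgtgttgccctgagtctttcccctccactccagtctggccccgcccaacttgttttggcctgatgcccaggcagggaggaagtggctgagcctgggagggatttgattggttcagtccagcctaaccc
Cyp4f15: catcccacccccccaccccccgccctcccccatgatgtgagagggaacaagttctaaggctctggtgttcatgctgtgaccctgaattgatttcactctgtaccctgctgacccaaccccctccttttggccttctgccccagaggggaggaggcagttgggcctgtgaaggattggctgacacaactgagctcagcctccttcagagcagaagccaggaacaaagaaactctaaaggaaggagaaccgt
Cyp4v3: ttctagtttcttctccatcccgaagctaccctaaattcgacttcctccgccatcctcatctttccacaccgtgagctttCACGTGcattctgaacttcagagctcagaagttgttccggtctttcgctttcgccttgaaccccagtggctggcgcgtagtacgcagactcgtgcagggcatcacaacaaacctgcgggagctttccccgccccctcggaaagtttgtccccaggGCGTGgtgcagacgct

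The 3 higher genes had at least 1 AHR core in this window and Cyp4f15 had none, but genes that were lower with smoke had it too, with 2 cores each in Cyp20a1 and Cyp2b10. The core is common: 28.2% of all 32851 windows of this length held it, and 7 of the 27 tested members with a window did. The further motifs searched on both strands were the D-box TTATGNAA, the antioxidant response core TGACNNNGC and the nuclear receptor element AGGTCA. They occurred in 3, 1 and 5 of the 27 members and in none of the 4 windows shown. Over all windows 3.07% held the D-box, 10.2% the antioxidant core and 4607 of 32851 the receptor element. The E-box was in 2 of the 27 members, Cyp4v3 and Cyp2j6, and in 6.02% of all windows. These matches are descriptions of letters in a window. Cyp7b1, Cyp2d22, Cyp39a1 and Cyp2c23 had no window in the table.

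Cyp4v3, the mouse counterpart of the human fatty acid hydroxylase CYP4V2, whose loss causes a retinal lipid dystrophy, was higher at every time. With 2 weeks of smoke its signal ran from 596 to 713 with a median of 681, and with forced air from 553 to 593 with a median of 565. The groups did not overlap (log2 change 0.22 ± 0.051 SE, adjusted p = 0.00315, limma). At 12 weeks the smoke arrays read 697, 723, 741, 747 and 755 against a forced air range from 546 to 613 with a median of 574, also without overlap (log2 change 0.34 ± 0.053 SE, adjusted p = 1.84e-06, limma). At 24 weeks they ran from 652 to 745 with a median of 693 against 508 to 582 with a median of 549.6, and the 6 smoke arrays were again above all 6 forced air arrays (log2 change 0.32 ± 0.051 SE, adjusted p = 2.07e-06, limma). The changes were modest in size, 1.16, 1.26 and 1.25-fold. A second probe set, with a name that does not carry the shared-sequence suffix of the brightest one, gave log2 changes of 0.34, 0.52 and 0.40, all called.

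Cyp4f16 read 151, 154.5, 157.01, 159 and 181 with 12 weeks of smoke, above the whole forced air range, from 102 to 133.6 with a median of 116.9 (log2 change 0.40 ± 0.086 SE, adjusted p = 0.000288, limma). At 24 weeks it ran from 129 to 156 with a median of 138.9 with smoke and from 94.4 to 114.5 with a median of 106 with forced air, with no overlap (log2 change 0.38 ± 0.082 SE, adjusted p = 0.000394, limma). The forced air mice of week 24 were themselves lower than untreated mice for this gene (log2 change -0.25), a call lost in 5 of 12 fits that left out 1 array. Untreated arrays ran from 116 to 155, which overlaps the smoke range of week 24. At 2 weeks the smoke and forced air groups overlapped and the change of Cyp4f16 was not called (log2 change 0.17 ± 0.082 SE, adjusted p = 0.197). Its other probe set, present on 49 arrays and named as sharing sequence with other genes, gave 0.26 and 0.13 at 12 and 24 weeks and 0.042 and 0.012 in the forced air and room air cessation groups, none called.

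Cyp4f39 was called at 24 weeks and not at 2 or 12. Its signal at 24 weeks ran from 39.5 to 47.4 with a median of 42.5 with smoke and from 17.3 to 26.4 with a median of 20.1 with forced air, so that the lowest smoke array was well above the highest forced air array (log2 change 0.68 ± 0.1 SE, adjusted p = 7.03e-07, limma). At 12 weeks the smoke arrays read 28.1, 29.0001, 29.1, 31.5 and 31.7, overlapping with forced air, from 19.2 to 31.3 with a median of 24.4 (log2 change 0.17 ± 0.11 SE, adjusted p = 0.244). The forced air mice of week 24 were themselves lower than untreated mice for this gene (log2 change -0.32 ± 0.1 SE, adjusted p = 0.0279, limma), which ran from 22.6 to 39.6 with a median of 29.7. The top untreated array lay within the smoke range of week 24. The difference between forced air and untreated mice was not called with the title number, with the 3'/5' ratios or without the high-ratio arrays (adjusted p = 0.0569, 0.0627 and 0.0974), nor in 4 of 12 fits that left out 1 array (up to 0.105).

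Cyp4f15 was lower at 12 weeks, 26.2, 31.98, 36.5, 37.0 and 46.7 against a forced air range from 43.0 to 76.1 with a median of 57.003, where 4 of 5 smoke arrays were below all forced air arrays (log2 change -0.50 ± 0.12 SE, adjusted p = 0.00106, limma). At 24 weeks the change was -0.27 ± 0.11 SE and not called (adjusted p = 0.095). Cyp4f18, the neutrophil leukotriene B4 hydroxylase of mice, was not called with smoke at any time (-0.001, 0.25 and 0.16 log2), and neither was Cyp4f13.

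Cyp4b1, a lung fatty acid hydroxylase that also activates furans and aromatic amines, ran from 1376 to 1482 with a median of 1413 with 2 weeks of smoke and from 1539.5 to 2235 with a median of 1743 with forced air, with no overlap (log2 change -0.31 ± 0.075 SE, adjusted p = 0.00391, limma). At 12 weeks it was 1124, 1206, 1313, 1354 and 1391 with smoke and from 1489 to 2264 with a median of 1603 with forced air, again with no overlap (log2 change -0.39 ± 0.079 SE, adjusted p = 0.000148, limma). At 24 weeks 5 smoke arrays were below the whole forced air range and 1 was above it, and the change was not called (log2 change -0.16 ± 0.075 SE, adjusted p = 0.139). The forced air arrays of weeks 2 and 12 also had higher ratios of 3' to 5' Gapdh signal, a measure of RNA integrity and labelling, 1.607 to 2.077 and 1.577 to 2.417 against 1.538 to 1.705 and 1.475 to 1.541 with smoke. At 24 weeks they were alike, 1.457 to 1.530 with forced air and 1.405 to 1.694 with smoke. With these ratios as covariates the Cyp4b1 calls at 2 and 12 weeks were lost (log2 change -0.17 at both, adjusted p = 0.127 and 0.0691). Without the 6 arrays of a Gapdh ratio over 1.9, a choice made after seeing the data, the 2 week change was -0.20 (adjusted p = 0.115). Of these arrays 3 were forced air of week 2, 2 were forced air of week 12 and 1 was untreated, so fewer mice were compared. In the same setting 10 members were called at 12 weeks in place of 11, 2 in place of 3 at 2 weeks, and 8 in place of 7 at 24 weeks.

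**Figure D4:**
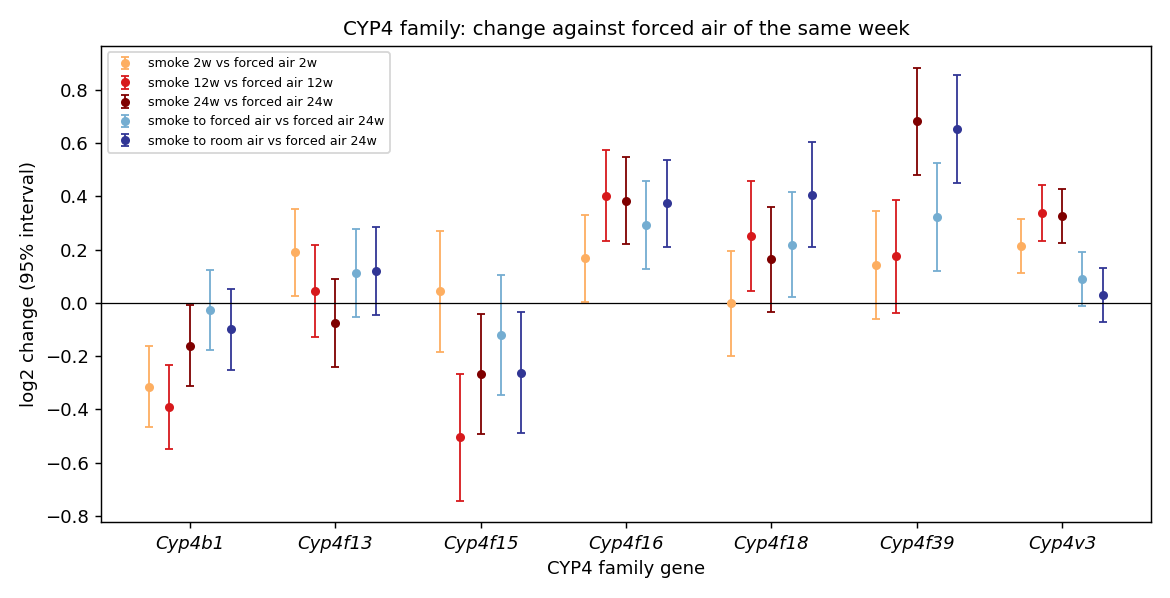
Log2 change against forced air of the same week (y axis) for the 7 tested CYP4 genes (x axis) in 5 comparisons (colours). Points are limma estimates and bars are 95% intervals of each comparison alone, not adjusted for the number of genes. Cyp4f16 lies above 0 in all 5 comparisons, while Cyp4f15 and Cyp4b1 lie below 0 at 12 weeks of smoke.

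Among the CYP2 and CYP3 genes, the calls against forced air of the same week were Cyp2c23 at 2 weeks, Cyp2b9, Cyp2b10, Cyp2c23, Cyp2d22 and Cyp3a13 at 12 weeks, and Cyp2d22 and Cyp3a13 at 24 weeks, all lower with smoke. Cyp2d22, a mouse homologue of human CYP2D6, was 285, 289, 306, 322 and 337 with 12 weeks of smoke, and forced air ran from 335 to 440.0 with a median of 431. All smoke arrays but 1 were below the whole forced air range (log2 change -0.39 ± 0.069 SE, adjusted p = 1.92e-05, limma). At 24 weeks the 6 smoke arrays ran from 283 to 339 with a median of 306 and lay below all 6 forced air arrays, from 354 to 462 with a median of 403 (log2 change -0.38 ± 0.066 SE, adjusted p = 1.85e-05, limma). At 2 weeks the change was 0.059 and not called. Its second probe set gave -0.32 at 12 weeks, called, and -0.20 at 24 weeks, not called (adjusted p = 0.0762).

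Cyp3a13, the CYP3A form of mouse gut and other tissues outside the liver, was 69.3, 78.0, 78.2, 78.7 and 84.1 with 12 weeks of smoke and from 83.9 to 129 with a median of 100.4 with forced air. The top smoke array, at 84.1, only just reached the lowest forced air array, at 83.9 (log2 change -0.35 ± 0.1 SE, adjusted p = 0.00874, limma). At 24 weeks smoke ran from 57.8 to 74.2 with a median of 65.9 and forced air from 81.0 to 100.2 with a median of 90.2, with no overlap (log2 change -0.38 ± 0.096 SE, adjusted p = 0.00354, limma). The other tested CYP3A genes, Cyp3a11 and Cyp3a44, were present on 10 and 8 arrays and were not called.

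Cyp2c23, which makes epoxides of arachidonic acid, fell early. It ran from 17.7 to 39.9 with a median of 27.6 with 2 weeks of smoke and from 40.1 to 53.2 with a median of 44.4 with forced air, without overlap (log2 change -0.47 ± 0.12 SE, adjusted p = 0.00509, limma). At 12 weeks the smoke arrays read 12.3, 14.7, 15.6, 16.2 and 22.4 against 25.3 to 40.1 with a median of 32.8 with forced air, again without overlap (log2 change -0.60 ± 0.12 SE, adjusted p = 0.000148, limma). At 24 weeks the smoke range was wide, from 15.0 to 39.8 with a median of 23.1, and the change was not called (log2 change -0.27 ± 0.12 SE, adjusted p = 0.103). Its probe set is named as one that can bind transcripts of more than 1 gene, and the array gives no second one.

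Cyp2b10, the classical phenobarbital-induced enzyme controlled by the receptor CAR and abundant in mouse lung, was 1192, 1293, 1326, 1385 and 1601 with 12 weeks of smoke and from 1466 to 1742 with a median of 1642 with forced air. One smoke array lay within the forced air range and 4 lay below it (log2 change -0.26 ± 0.075 SE, adjusted p = 0.00719, limma). At 2 and 24 weeks the changes were -0.054 and -0.12 and not called. Its 2 other probe sets gave -0.28 and -0.32 at 12 weeks, both called. The related Cyp2b9, a female-predominant liver form, was present on 4 of 6 forced air arrays and 0 of 5 smoke arrays at 12 weeks. Its level with forced air was at least 1.22-fold higher on the log2(signal + 16) scale (adjusted p = 0.00714, limma), with means of 10.5 ± 1.49 (SD, n = 6) and 5.78 ± 1.77 (SD, n = 5), both below the constant of 16 added before the log.

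**Figure D5:**
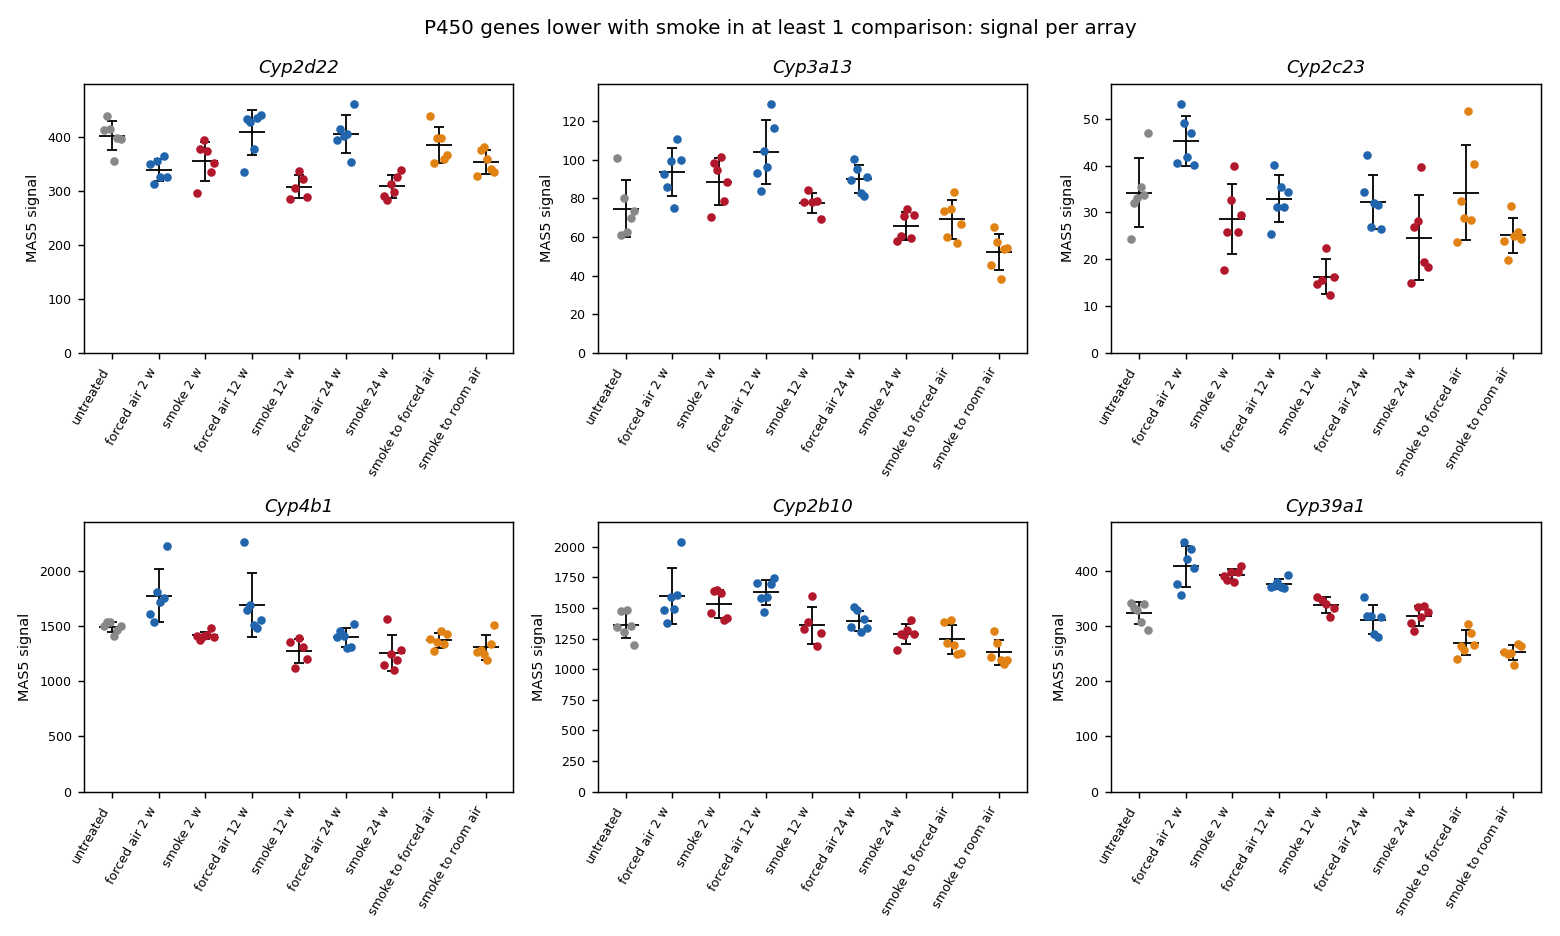
Signal on each array (y axis, linear from 0) of Cyp2d22, Cyp3a13, Cyp2c23, Cyp4b1, Cyp2b10 and Cyp39a1 in the 9 groups (x axis, n = 6 except smoke at 12 weeks, n = 5). Points are arrays, and black marks are the mean with the SD as error bars. Cyp2d22 and Cyp3a13 were lower with 12 and 24 weeks of smoke. Cyp3a13, Cyp2b10 and Cyp39a1 had their lowest group mean after 12 weeks of room air.

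Cyp2e1, the ethanol and small solvent oxidase, and Cyp26b1, which clears retinoic acid, varied most between mice of 1 group, with residual SDs of 0.539 and 0.845 on the log2 scale. Cyp2e1 read 52.1, 70.3, 71.7, 119 and 122.2 with 12 weeks of smoke, and forced air ran from 74.9 to 223 with a median of 138.1 (log2 change -0.65 ± 0.31 SE, adjusted p = 0.122, limma). The groups overlapped, and the 95% interval of this comparison alone ran from -1.27 to -0.035. At 24 weeks 1 forced air array stood at 471, with the other 5 between 61.8 and 119. On that array the adipocyte markers Adipoq and Ucp1 read 1113 and 175, against 59.2 to 116 and 6.29 to 10.7 on the other 5, and the 8 adipocyte markers summed to 4599 where the median array of the group had 818. Their part in the Cyp2e1 value was not tested.

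Cyp26b1 was -0.70 ± 0.48 SE at 12 weeks and -0.86 ± 0.46 SE at 24 weeks, neither called (adjusted p = 0.313 and 0.198, limma). Cyp2s1, an AHR-inducible enzyme of epithelia, was not called at any time, with changes of -0.035, -0.20 and 0.14. Its interval at 24 weeks, -0.05 to 0.33, leaves room for a small rise. Cyp2j6, an arachidonic acid epoxygenase, was not called either (0.058, -0.076 and -0.15).

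Cyp20a1, a P450 with no settled substrate, ran from 692 to 919.6 with a median of 756 with 24 weeks of smoke and from 785 to 1203 with a median of 1042 with forced air, and 3 of 6 smoke arrays were below the whole forced air range (log2 change -0.34 ± 0.11 SE, adjusted p = 0.0187, limma). The call was lost without the first smoke array (adjusted p = 0.0553) or without the third or the fifth forced air array (0.0562 and 0.0726). Of its 2 other probe sets, 1 was called at 24 weeks (-0.47) and 1 was not (-0.15).

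Several effects of smoke differed by duration when the difference itself was tested. From 2 to 12 weeks the effect on Cyp7b1 rose by 0.70 ± 0.17 SE (adjusted p = 0.012, limma) and that on Cyp2d22 fell by 0.45 ± 0.095 SE (adjusted p = 0.00473). These were 1 member in each direction, where 1.48% of all genes were called higher and 0.719% lower. For Cyp7b1 and Cyp2d22 the forced air mice of week 2 themselves differed from untreated mice (log2 change 0.50 and -0.24, both called). That Cyp2d22 call was lost with the 3'/5' ratios as covariates (adjusted p = 0.163, limma). Forced air mice of weeks 12 and 24 did not differ by call from untreated mice for these genes. The differences from 2 weeks therefore also rest on the level of the week 2 forced air mice. From 2 to 24 weeks the effect rose for Cyp4f39 (0.54) and Cyp7b1 (0.55) and fell for Cyp2d22 (-0.43) and Cyp20a1 (-0.55), against 3.85% higher and 2.57% lower over all genes. With the 3'/5' ratios as covariates the 24 week differences of Cyp4f39, Cyp7b1 and Cyp20a1 were not called (adjusted p = 0.0863, 0.0909 and 0.111), and that of Cyp7b1 was also lost in 7 of 24 fits that left out 1 array (up to 0.0818). The second Cyp2d22 probe set was not called for either difference (-0.26 and -0.14, adjusted p = 0.262 and 0.431), nor were the other Cyp20a1 ones (-0.25 and -0.61, adjusted p = 0.314 and 0.0589), while that of Cyp7b1 was called for both (0.86 and 0.48). Between 12 and 24 weeks 0 members were called in limma, where 0.02% and 0.0266% of all genes were called higher and lower. An unadjusted p under 0.05 was found for 4 members, and the share of all genes at that threshold is not given here.

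After 12 weeks of smoke and 12 of forced air, 1 member was still higher than with forced air throughout, Cyp4f16, and 1 was lower, Cyp39a1. Over all genes 1.46% were higher and 0.526% lower, and the median change of the members was -0.015. Cyp4f16 ran from 111 to 151 with a median of 133.8, with 5 of 6 arrays above the whole forced air range (log2 change 0.29 ± 0.082 SE, adjusted p = 0.0439, limma). That forced air group was itself lower than untreated mice for Cyp4f16 (log2 change -0.25), which ran from 116 to 155. Cyp39a1 ran from 240.3 to 305 with a median of 265 where forced air ran from 280.3 to 353 with a median of 317 (log2 change -0.20 ± 0.053 SE, adjusted p = 0.038, limma). Each of these calls was lost in 8 of 12 fits that left out 1 array, with adjusted p up to 0.139 for Cyp4f16 and 0.109 for Cyp39a1.

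Compared with mice kept on smoke for 24 weeks, this cessation group had 3 members higher, Cyp2d22, Cyp2j9 and Cyp27a1, and 4 lower, Cyp4f39, Cyp4v3, Cyp7b1 and Cyp39a1. The background was 7.68% higher and 7.45% lower. Cyp7b1 ran from 111 to 182 with a median of 147, wholly below the smoke mice of week 24 (log2 change -0.56 ± 0.11 SE, adjusted p = 0.000291, limma), and it did not differ by call from forced air (0.064). Cyp4v3 ran from 504 to 637 with a median of 607 and was also wholly below continued smoke (log2 change -0.24 ± 0.051 SE, adjusted p = 0.000542, limma). Cyp2d22 ran from 352 to 439 with a median of 382 and was wholly above it (log2 change 0.31 ± 0.066 SE, adjusted p = 0.000531, limma). Cyp4f39 split into 3 arrays between 19.4 and 22.04 and 3 between 36.3 and 49.6 (log2 change -0.36 ± 0.1 SE, adjusted p = 0.00924, limma). Its call was lost without the fourth array (adjusted p = 0.0512) and with only the compared groups (adjusted p = 0.0952).

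After room air instead of forced air, 3 members were higher than with forced air at 24 weeks, Cyp4f16, Cyp4f18 and Cyp4f39, and 5 were lower, Cyp2b10, Cyp2c54, Cyp2d22, Cyp3a13 and Cyp39a1. The background was 9.8% higher and 5.32% lower, and the median change of the members was -0.045. Cyp3a13 ran from 38.1 to 65.1 with a median of 54.1, below every forced air array (log2 change -0.64 ± 0.096 SE, adjusted p = 3.82e-06, limma). Cyp4f39 ran from 37.6 to 46.1 with a median of 41.9, above every forced air array and close to continued smoke (log2 change 0.65 ± 0.1 SE, adjusted p = 5.6e-06, limma). Cyp4f16 ran from 126 to 162 with a median of 133, also with no overlap (log2 change 0.37 ± 0.082 SE, adjusted p = 0.000835, limma). For Cyp4f39 and Cyp4f16 the forced air mice of week 24 were themselves lower than untreated mice, as given above.

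Cyp39a1 was from 230.3 to 268 with a median of 253 after room air, below all forced air arrays (log2 change -0.28 ± 0.053 SE, adjusted p = 0.000115, limma). Cyp2b10 ran from 1039 to 1309 with a median of 1088, with 5 of 6 arrays below the forced air range (log2 change -0.30 ± 0.071 SE, adjusted p = 0.00243, limma). Cyp4f18 was higher, from 49.8 to 73.7 with a median of 61.4 against 28.9 to 55.8 with a median of 42.2 (log2 change 0.41 ± 0.098 SE, adjusted p = 0.00266, limma). The smaller changes of Cyp2d22 (-0.19, adjusted p = 0.0419) and of Cyp2c54 (-0.22, adjusted p = 0.0373, limma), which was present on 1 of 6 room air arrays, were lost in 8 and 7 of 12 fits that left out 1 array, and the second Cyp2d22 probe set gave -0.073 (adjusted p = 0.601).

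The room air mice differed from forced air mice in the transcripts of the circadian clock too. Of 13 clock factors 9 were lower and 3 higher, against 5.32% and 9.8% of all genes, with a summed signal of 3491 to 4071 against 6261 to 7129, and all 13 were detected in each group. The D-box factors Dbp, Tef and Hlf, which drive Cyp2b10 and other P450 genes in mouse liver, were lower by 1.44, 0.85 and 1.45 on the log2 scale. The 250 bases before Cyp2b10 (chr7:25897408-25897657, plus strand, GRCm38.p6) are shown with capitals at 1 D-box and 2 AHR cores, which do not overlap.
Cyp2b10: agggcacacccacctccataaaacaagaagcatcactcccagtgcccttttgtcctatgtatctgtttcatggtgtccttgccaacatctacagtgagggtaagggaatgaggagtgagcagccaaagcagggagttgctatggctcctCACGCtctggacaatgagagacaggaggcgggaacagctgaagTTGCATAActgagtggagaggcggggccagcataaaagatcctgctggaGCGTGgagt
The other tested members with a D-box, Cyp27a1 and Cyp2b19, were not called in this comparison (0.062 and -0.016). After forced air the clock factors summed to 5292 to 6589, with 1 of 13 higher and 1 lower, where 1.46% and 0.526% of all genes were. With continued smoke at 24 weeks they summed to 5580 to 6059, with 4 of 13 higher and 4 lower than with forced air. Of all genes 11.1% were higher and 6.68% lower in that comparison. Between the cessation groups 8 of 13 were lower and 2 higher after room air, where 0.506% and 0.459% of all genes were, and Cyp2b10 was not called. With forced air at 2, 12 and 24 weeks 7, 8 and 6 were higher than in untreated mice and 2, 3 and 2 lower. Of all genes 10.8%, 2.2% and 4.71% were higher there and 12.4%, 3.56% and 9.39% lower. Cyp2b10 was called higher at 2 and 12 weeks but not at 24. The part of the clock factors in these P450 results was not tested.

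Against continued smoke the room air mice had 3 members higher, Cyp2d22, Cyp2j9 and Cyp27a1, and 4 lower, Cyp3a13, Cyp4v3, Cyp7b1 and Cyp39a1, with a background of 9.12% higher and 9.06% lower. Leaving out 1 array lost the Cyp3a13 call in 7 of 12 fits (adjusted p up to 0.167) and the Cyp2d22 call in 6 of 12 (up to 0.0976), and the Cyp3a13 call was also lost under 4 of 11 other settings. The second Cyp2d22 probe set was not called here (0.13, adjusted p = 0.308). Cyp7b1 ran from 113.6 to 197 with a median of 139.6 (log2 change -0.57 ± 0.11 SE, adjusted p = 0.000189, limma) and Cyp4v3 from 525.7 to 592 with a median of 562 (log2 change -0.30 ± 0.051 SE, adjusted p = 1.38e-05, limma), and neither was called against forced air at 24 weeks (0.055 and 0.028). Cyp2j9, a fatty acid epoxygenase and hydroxylase, was 1.25-fold higher in each cessation group than with continued smoke (adjusted p = 0.0018 and 0.00147, limma), although smoke itself had not changed it by call (-0.13). The brightest probe set of Cyp27a1 was higher than with continued smoke after forced air (0.27) and after room air (0.22), but its second one, present on 51 arrays, was not (-0.0095 and -0.063, adjusted p = 0.964 and 0.626, limma). The room air call was also lost with only the compared groups (adjusted p = 0.0521) and in 3 of 12 fits that left out 1 array (up to 0.0804). The 2 sets of comparisons share the smoke or the forced air arrays of week 24.

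Between the cessation groups 0 members were called in limma, where 0.459% of all genes were called higher and 0.506% lower after room air. An unadjusted p under 0.05 was found for 4 members, and the share of all genes at that threshold is not given here. The 4 were Cyp3a13 (-0.32, adjusted p = 0.108), Cyp4f39 (0.33, adjusted p = 0.11), Cyp2c23 (-0.27) and Cyp46a1 (-0.25). The difference in the number of members called against forced air is therefore not shown to be a difference between the cessation groups.

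Mice with forced air alone also differed from untreated mice. After 2 weeks 5 members were higher than in untreated mice, Cyp2b10, Cyp3a13, Cyp4b1, Cyp7b1 and Cyp39a1, and 3 were lower, Cyp2d22, Cyp4f13 and Cyp4f18, against 10.8% higher and 12.4% lower over all genes. Cyp7b1 ran from 109 to 205 with a median of 156 and untreated mice from 84.5 to 128 with a median of 110.1, with 5 of 6 forced air arrays above all untreated ones (log2 change 0.50 ± 0.11 SE, adjusted p = 0.0012, limma). Cyp39a1 ran from 356 to 452 with a median of 413 against 292 to 343 with a median of 332, without overlap (log2 change 0.31 ± 0.053 SE, adjusted p = 2.36e-05, limma). Cyp4f13 was lower without overlap (log2 change -0.41 ± 0.082 SE, adjusted p = 0.000279, limma). Without the 6 arrays of high Gapdh ratio 2 members were called in place of 8, Cyp7b1 and Cyp39a1, and with the ratios as covariates 5 were called. Leaving these arrays out removed 3 of 6 forced air arrays of week 2 and 1 untreated array. The log2 changes were then 0.27, -0.20, 0.16, 0.14 and -0.22 for Cyp3a13, Cyp2d22, Cyp2b10, Cyp4b1 and Cyp4f18, in place of 0.28, -0.24, 0.22, 0.24 and -0.28. The part of the smaller number of mice in the lost calls was not tested. Leaving out 1 array lost the call of Cyp3a13 in 6 of 12 fits (adjusted p up to 0.0758) and that of Cyp4f18 in 4 of 12 (up to 0.137).

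After 12 weeks of forced air 4 members were higher than untreated, Cyp2b9, Cyp2b10, Cyp3a13 and Cyp39a1, and 0 lower, with a background of 2.2% and 3.56%. With only the compared groups the Cyp3a13 and Cyp39a1 calls were lost (adjusted p = 0.0761 and 0.0717, limma). The Cyp39a1 call was also lost with the 3'/5' ratios as covariates (0.0749). Leaving out 1 array lost the Cyp2b10 call in 2 of 12 fits (up to 0.0716) and that of Cyp39a1 in 1 of 12 (0.0509). At 24 weeks 0 were higher in limma and 4 lower, Cyp2j6, Cyp2j9, Cyp4f16 and Cyp4f39, with a background of 4.71% and 9.39%. Counting both directions, 8 members at 12 weeks and 9 at 24 weeks had an unadjusted p under 0.05 in limma. The shares of all genes given here are at an adjusted p under 0.05 and cannot be set beside these unadjusted counts. Leaving out 1 array lost the 24 week calls of Cyp2j6 and Cyp4f16 in 5 of 12 fits each, and their second probe sets were not called (-0.083 and -0.089). Cyp39a1 was not called at 24 weeks (-0.057). Cyp2b9 was present on 0 of 6 untreated arrays, and its 12 week level was at least 1.25-fold higher on the log2(signal + 16) scale (adjusted p = 0.00566, limma). Age, air flow and time of sampling cannot be told apart in these comparisons. The clock factors summed to 3977 to 5975 in untreated mice, below every forced air group, whose lowest array had 6261.

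Genes that serve P450 enzymes are given here by counts, to be read against the shares of all genes above. Of 8 tested electron donors and their reductases none was called at 2 weeks of smoke, 1 was higher and 2 lower at 12 weeks, and 1 was higher at 24 weeks. These were Cyb5a and Cyb5r3 (-0.21 each) and Cyb5r1 (0.36) at 12 weeks, and Cyb5r4 (0.17) at 24 weeks. The background at 12 weeks was 12.5% in the higher and 10.5% in the lower direction. After room air Fdx1, the ferredoxin of mitochondrial P450 enzymes, was lower (-0.43). Of 8 genes of haem synthesis, Alas1, the first and rate-limiting step, was lower in both cessation groups (-0.34 after forced air and -0.49 after room air), and Alas2 was lower at 12 weeks of smoke (-0.53). After room air 1 of the 8 was higher and 2 were lower, where 9.8% and 5.32% of all genes were. Between forced air at 2 weeks and untreated mice 3 of 8 electron donors and 3 of 8 haem genes were higher and 1 of each was lower, where 10.8% and 12.4% of all genes were.

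Of 8 flavin monooxygenases and epoxide hydrolases, which share substrates with P450 enzymes, 2, 5 and 2 were lower at 2, 12 and 24 weeks of smoke and none was higher. Of all genes 3.72%, 10.5% and 6.68% were lower at these times. Ephx1, the microsomal epoxide hydrolase, was lower at all 3 times (-0.18, -0.26 and -0.16), and Fmo2, the main lung form, at 12 and 24 weeks (-0.25 and -0.27). Of 15 tested receptors that control P450 genes, 3 rose and 0 fell at 2 weeks, and at 12 and at 24 weeks 2 rose and 2 fell. Pparg was higher at all 3 times (0.51, 0.38 and 0.49), with Rxra (0.18) and Nr5a1 (0.28) at 2 weeks, Nr5a2 (0.34) at 12 weeks and Hnf4a (0.55) at 24 weeks. Ppara (-0.23 and -0.31) and the retinoic acid receptor Rarb (-0.28 and -0.25) were the lower ones at 12 and 24 weeks. Of all genes 5.4%, 12.5% and 11.1% were higher at the 3 times.

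Markers of lung cell types were counted in the same comparisons. Of 11 alveolar type 2 markers 0, 2 and 1 were higher at 2, 12 and 24 weeks of smoke and none was lower, and at 12 weeks they summed to 18736 to 20869 with smoke against 19126 to 25023 with forced air. At 2, 12 and 24 weeks of smoke 5, 9 and 2 of 12 endothelial markers were lower and none higher, with summed signals of 9500 to 9995 against 10429 to 12418 with forced air at 2 weeks, and 8435 to 9543 against 10062 to 12819 at 12 weeks. Of 12 alveolar type 1 markers 6, 8 and 1 were lower and 0, 0 and 1 higher. They summed to 17854 to 18650 against 19112 to 26987 at 2 weeks, and to 16348 to 18259 against 18724 to 25201 at 12 weeks. The forced air arrays of weeks 2 and 12 had the higher Gapdh 3'/5' ratios given above, whose part in these counts was not tested. Of 12 club cell markers, Cyp2f2 among them, 4 were lower and 1 higher at 12 weeks, summing to 12968 to 14988 against 12872 to 20021, and at 24 weeks 0 were lower and 1 was higher. Of all genes 3.72%, 10.5% and 6.68% were lower and 5.4%, 12.5% and 11.1% higher at the 3 times. Summed signals of ciliated cell and mesothelial markers were also lower without overlap at 12 weeks of smoke. They were 3487 to 3975 against 4152 to 5308, and 2321 to 2827 against 2920 to 3283. At 2 weeks the mesothelial sum was already lower without overlap, 2707 to 2951 against 3031 to 3391, while the ciliated cell sums overlapped. At 24 weeks the sums of both lists overlapped with forced air. All markers of these lists were detected in every group. Their part in the lower signals of Cyp4b1, Cyp2b10, Cyp2c23, Cyp4f15, Cyp2d22 and Cyp3a13 was not tested.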

How the data were processed

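RNA of 53 mouse lungs was amplified and hybridised to Affymetrix mouse genome arrays, 1 array per mouse. Per the submitters' processing notes, the authors computed the deposited signal intensity of each probe set with MAS5, and the values show that each array was scaled to a 2% trimmed mean of 150. The files also hold a detection p-value per probe set as deposited by the authors, and the largest one with a present call was 0.0488. Per array, 67.5% to 76.2% of 45101 probe sets were called present. The number of arrays limits the precision.

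The number 16 was added to each signal before log2, which understates fold changes of dim genes. Probe sets with 1 gene symbol in the platform annotation (34945) were used, 932 with several and 9160 with none were left out, and 34741 matched the RefSeq table. All 9 groups were fitted together in limma 3.58.1 (R 4.3.3), with Benjamini-Hochberg adjustment over 15030 genes, after a test on simulated data. A change was called at an adjusted p under 0.05. A bound ("at least") was used where a gene had no present call in 1 group. Promoter windows and gene order came from RefSeq tables of GRCm38.p6, and 48 of 67 members had a window. Tables were made with Python 3.11.15 and pandas 2.3.3.

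Genes were named when called in a smoke comparison or in a cessation group against forced air, when among the 5 brightest in untreated mice, or when in a fixed panel, and members called elsewhere were named with their change. The members, the lists and the panel were chosen with earlier results of these data known. The alternatives were quantile normalization, other constants before the log, other filters, only the compared groups, another probe set per gene, the title number, the 3'/5' ratios and leaving out each array. Leaving out arrays of a Gapdh ratio over 1.9 was chosen after seeing the data.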

Additional observations from a re-analysis of the deposited data

Results flagged for a closer look

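In 10 of 180 groups of values, 1 array stood apart from the rest by Dixon's test, and chance alone gives about 1 in 20. Cyp2e1 reached 471.0 on 1 forced air array of week 24 (others 61.8 to 119), the array with the high adipocyte markers. Cyp26b1 reached 766.4 on 1 forced air array of week 12 (others 60.9 to 144.1), and Cyp4b1 reached 2264 on the same array (others 1489 to 1691). That array had the highest Gapdh 3'/5' ratio of all, 2.417. Their part in these values was not tested.

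Cyp4f16 had a high array in untreated mice (155, others 116 to 128), with 2 weeks of smoke (165, others 129 to 140) and with 12 weeks of smoke (181, others 151 to 159). Cyp4f18 had a high array with 12 weeks of smoke (74.4, others 56.6 to 60.9) and a low one with 24 weeks (39.7, others 49.1 to 53.7). Cyp2c54, a dim gene, had a high array with 2 weeks of smoke (11.4, others 5.26 to 7.39) and with 24 weeks (11.2, others 5.85 to 7.13).

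The effect of smoke differed between durations, by limma's test of the difference, for Cyp7b1 (0.70 on the log2 scale from 2 to 12 weeks and 0.55 from 2 to 24 weeks), Cyp2d22 (-0.45 and -0.43), Cyp4f39 (0.54 from 2 to 24 weeks) and Cyp20a1 (-0.55 from 2 to 24 weeks). The differences from 2 to 24 weeks of Cyp7b1, Cyp4f39 and Cyp20a1 were lost with the 3'/5' ratios as covariates. They were also lost without the arrays of a Gapdh ratio over 1.9. The other probe sets of Cyp2d22 and Cyp20a1 were not called.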

How the results depend on the processing

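The 63 calls of the 23 named genes were followed, not the 4 of Cyp2j9 and Cyp4f13, and none of the 63 reversed under the alternatives run. Of these, 15 were lost when only the compared groups were fitted, 12 with the 3'/5' ratios as covariates, 11 without the arrays of a Gapdh ratio over 1.9, 6 with the probe set of the largest SD, 4 each with quantile normalization and the title number, and 2 each with 64 added before the log and no detection filter. The count after smoke and then forced air, against forced air, went from 2 to 1 with 64 added or no filter, to 0 with only the compared groups or the largest SD, and to 4 without the high-ratio arrays. For forced air against untreated mice, the 2 week count went from 8 to 5 with the ratios and to 2 without the high-ratio arrays, and with only the compared groups the 12 and 24 week counts went from 4 to 2 and from 4 to 1. The difference from 2 to 24 weeks went from 4 to 2 with the title number and to 1 with the ratios or without the high-ratio arrays. The cause was not tested. Leaving out 1 array at a time gave 0 to 4 calls after smoke and then forced air, 0 to 1 between cessation groups, 4 to 9, 2 to 4 and 1 to 6 for forced air at 2, 12 and 24 weeks against untreated mice, and 2 to 5 for the difference from 2 to 24 weeks. It gave 3 at each fit, 10 to 11 and 6 to 8 for smoke at 2, 12 and 24 weeks. No paired analysis was possible because the labels give no replicate number that groups share as a litter, cage or day, and replicates were numbered in accession order. A scan date block was not run, since the files used here give no dates.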
